A study of Homo sapiens with 60 samples.

Results

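CD24, CD200, SYTL2, PLD1, SELENBP1 and CLEC3A are 6 of the 60675 genes in a table of RNA sequencing counts from HT29 cells. They were chosen from these same data because their counts went down over the doses of most of the herbal extracts tested. The differences between high and low dose are therefore given as a description with no test. The exact limits of that choice are not recorded, so no value just inside or outside them can be given. All 6 genes passed the filter on low counts, which kept 16445 genes, with at least 39 counts in every library. The medium dose was tested against vehicle. Whether medium dose values also entered the choice is not recorded, so these tests are not independent support for it.

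HT29 is a human colorectal adenocarcinoma line, and every library came from HT29 cells kept for 24 h with vehicle or an extract. Vehicle (3 libraries) was 0.1% DMSO by the sample labels and 2% DMSO by the series text. No DMSO content is recorded here for the extract groups. Water extracts of the mixed-herb formulas Palmul-tang and Sibjeondaebo-tang, and ethanol extracts of Poria Cocos, Atractylodis Rhizoma and Panax Ginseng were given at 500 (high), 100 (medium) and 20 µg/mL (low). The ethanol extract of Glycyrrhizae Radix (licorice) was given at 350, 70 and 14 µg/mL, and each of these 18 groups had 3 libraries. Angelicae Gigantis Radix, at 320, 64 and 12.8 µg/mL, had 1 library per dose and no test. High doses below 500 µg/mL were the extract's IC20 by the labels' dose rule. The herbs are called Palmul, Sibjeondaebo, Poria, Atractylodes, Ginseng, Glycyrrhiza and Angelica below.

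CD24 and CD200 are surface proteins that send inhibitory signals to immune cells. CD24, a small heavily glycosylated protein held by a lipid anchor, binds a Siglec receptor on macrophages and marks many epithelial tumours. CD200 binds the CD200 receptor of myeloid cells. SYTL2 is a synaptotagmin-like protein that binds the small GTPase Rab27 and tethers secretory vesicles to the plasma membrane. PLD1 is a phospholipase D, which cleaves phosphatidylcholine to the lipid messenger phosphatidic acid. SELENBP1, selenium-binding protein, oxidises methanethiol and is abundant in mature colonocytes. CLEC3A is a secreted protein of the C-type lectin family, first known from cartilage.

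On GRCh38 (GENCODE release 29), CD24 (ENSG00000272398) lies at chr6:106969831-106975627 on the minus strand and CD200 (ENSG00000091972) at chr3:112332347-112362812 on the plus strand. SYTL2 (ENSG00000137501) lies at chr11:85694224-85811159 and PLD1 (ENSG00000075651) at chr3:171600405-171810950, both on the minus strand. SELENBP1 (ENSG00000143416) lies at chr1:151364302-151372733 on the minus strand, and CLEC3A (ENSG00000166509) at chr16:78022515-78066761 on the plus strand. CD24 has 4 near-identical pseudogene copies in the table, which held at most 2 counts in any library.

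Because the genes varied together with dose, the DNA before their start sites was searched for 10 short motifs on both strands. RefSeq promoters (GRCh38.p14) were at hand for 3 of the 6 genes, CD24, CD200 and PLD1, and not for SYTL2, SELENBP1 and CLEC3A. The motifs included the TATA box, spelled TATAAA, and the SP1 site, spelled GGGCGG. The CCAAT box bound by the factor NF-Y, the E-box of letters CACGTG and the GATA factor site of letters AGATAA were also searched. For AP-1 the letters were TGANTCA, for forkhead factors TGTTTAC, for the gut factor CDX2 TTTATNG and for the Wnt pathway factors TCF/LEF TTCAAAG. The core of the antioxidant response element was searched as TGANNNNGC. CD24, the most abundant of the 6, is shown with the 250 bases before start 1 (chr6:106975628-106975877) and start 3 (chr6:106974040-106974289) of its RefSeq transcripts, both on the minus strand. Capitals mark motif matches.
CD24 start 1: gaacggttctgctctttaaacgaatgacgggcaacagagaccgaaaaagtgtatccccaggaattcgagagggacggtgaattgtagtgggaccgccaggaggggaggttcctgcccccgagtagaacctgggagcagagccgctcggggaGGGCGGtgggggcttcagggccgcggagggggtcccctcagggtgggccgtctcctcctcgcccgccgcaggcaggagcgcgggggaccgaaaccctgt
CD24 start 3: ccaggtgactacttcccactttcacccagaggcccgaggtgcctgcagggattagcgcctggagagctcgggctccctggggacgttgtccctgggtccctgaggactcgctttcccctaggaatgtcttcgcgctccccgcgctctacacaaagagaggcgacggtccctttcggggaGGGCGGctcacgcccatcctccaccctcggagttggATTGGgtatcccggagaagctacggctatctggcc
The capitals are an SP1 match in each window and, in that of start 3, an NF-Y match read on the other strand. An SP1 match occurred in 42.6% and an NF-Y match in 32.0% of the 35116 windows of the same length. The window before CD24 start 2 held 1 match to the antioxidant response element core (35.2% of windows). PLD1 held 2 SP1 matches. CD200 held the letters of a TATA box (10.7% of windows), 147 bases before the start, and a TCF/LEF match (3.8%). No motif was found in the windows of all 3 genes, and a match or its absence describes the letters only. The windows of CD24 start 2, PLD1 and CD200 overlap annotated exons of their gene and are not printed. Of their 250 bases, 88, 19 and 0 lie outside such exons, and all the matches in these windows lie inside exons.

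The libraries held 19.31 M to 29.62 M counts each (median 25.06 M), those of vehicle 19.79 M to 20.88 M. The mitochondrial share of counts was 10.24% ± 1.36 (SD, n = 3) in vehicle and 6.83% to 8.83% as means of the treated groups of 3. A set number in the sample names is 8 for both formulas, 9 for Poria and Atractylodes, 10 for Ginseng and Glycyrrhiza, and 11 for Angelica. The vehicle names carry none. The titles of all libraries, vehicle included, carry the batch name BatchC, which does not give the set of vehicle. A difference from vehicle therefore cannot be told apart from a difference between sets or, where the solvent differed, in solvent. The labels do not say whether replicates were separate cultures, so p-values speak only of the spread between libraries, part of which may be technical. All 8 markers of colorectal epithelium were detected, with KRT8 at a median of 6873.6 and CDX2 at 4.59 counts per M (CPM). Of the 6 immune markers, PTPRC and CD3E had a median of 0, and CD14 was present in every library (2.6 to 4.58 CPM, median 3.55). LYZ, which some gut epithelial cells also make, had a median of 1476.2 CPM. The 5 fibroblast markers summed to at most 2.01 CPM and the 4 endothelial markers to at most 2.41 CPM, with KDR at 0 throughout.

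In vehicle, the levels per length of the genes' exons were far apart. CD24 was at 992.4 ± 9.98 transcripts per M (TPM; SD, n = 3) and CLEC3A at 87.1 ± 5.05. SELENBP1 (17.9 ± 0.48) and SYTL2 (15.8 ± 1.49) followed, and their libraries did not overlap. PLD1 (9.61 ± 0.384) and CD200 (9.21 ± 0.889) overlapped, so their order is not resolved. The values below are CPM scaled with TMM factors, and compare libraries within a gene.

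CD24 was at 990.3, 1013.3 and 1056.9 CPM in the 3 vehicle libraries, above every treated library. With Glycyrrhiza it went from 893.7, 940.8 and 972.6 CPM at the low dose through 853.9, 857.3 and 897.8 at the medium to 576.2, 577.8 and 598.5 at the high dose. The 3 high dose libraries lie far below all others, at 57.3% of the vehicle mean. Over the 15 libraries of the other 5 extracts, the low dose ran from 894.5 to 957.1 CPM with a median of 941.6, and the high dose from 781.9 to 910.5 with a median of 823.0. High minus low on the log2 scale was -0.68 ± 0.03 (SE of the fit) with Glycyrrhiza and -0.25 ± 0.03 with Poria. It was -0.21 ± 0.03 with Atractylodes, -0.19 ± 0.03 with Ginseng, -0.14 ± 0.03 with Palmul and -0.13 ± 0.03 with Sibjeondaebo. In each of the 6 extracts the high dose libraries lay below the low dose libraries.

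CD200, the other inhibitory ligand, was the least abundant of the 6 by CPM and showed the widest range. Vehicle held 8.26, 10.1 and 9.03 CPM. With Glycyrrhiza the low dose held 6.39, 8.43 and 6.72 CPM, the medium dose 5.84, 7.14 and 6.16, and the high dose 1.90, 2.26 and 1.69. The high dose mean was 21.3% of vehicle, and its libraries were the lowest of all 60. High minus low was -1.88 ± 0.16 on the log2 scale, or 0.272 times the low dose. With Atractylodes, Poria and Ginseng it was -0.60 ± 0.13, -0.55 ± 0.13 and -0.50 ± 0.13, again with no overlap between the libraries of the doses. With Palmul (-0.27 ± 0.12) and Sibjeondaebo (-0.11 ± 0.12) the libraries of the doses overlapped, and the Sibjeondaebo difference was within 1 SE of 0.

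**Figure D1:**
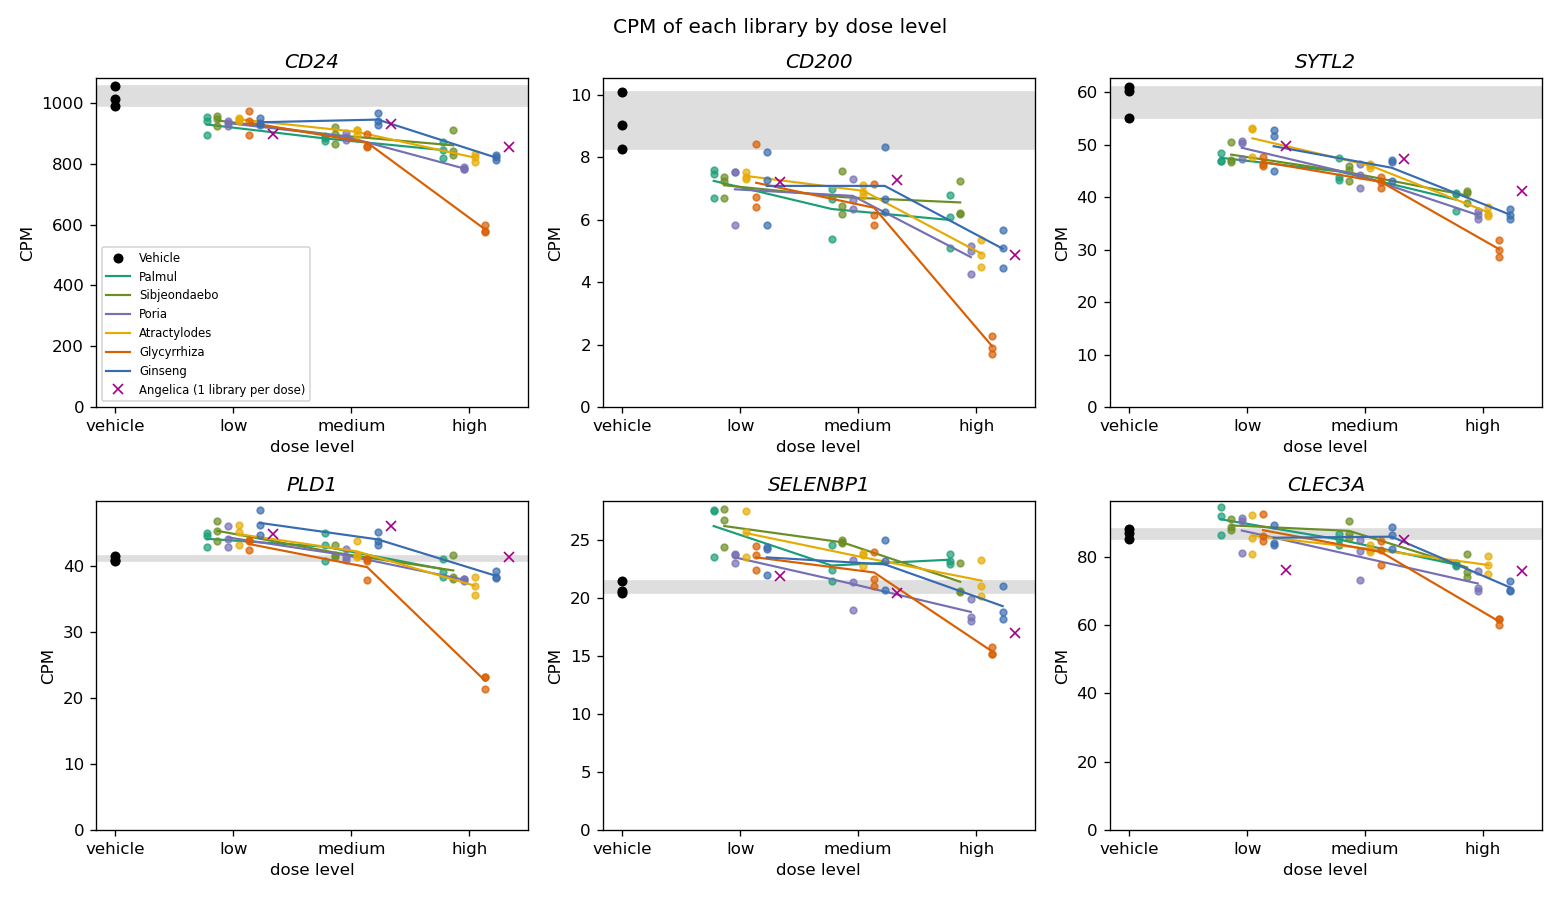
Counts per M (CPM, linear axis from 0) of each of the 6 genes in vehicle and at the low, medium and high dose. Points are libraries, lines join the means of 3 libraries of an extract, crosses are the single Angelica libraries, and the grey band spans the vehicle libraries. The Glycyrrhiza high dose is the lowest group in all 6 panels. The low dose means of CD24, CD200 and SYTL2 lie below the vehicle band, and those of PLD1 and SELENBP1 above it.

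SYTL2, the Rab27 effector, was at 61.0, 60.2 and 55.0 CPM in vehicle. With Glycyrrhiza it was at 46.4, 47.7 and 46.0 CPM at the low, 42.9, 41.8 and 43.8 at the medium and 29.9, 31.8 and 28.6 at the high dose. Its means went down from low through medium to high in all 6 extracts. Over the other 5 extracts the 15 high dose libraries ran from 35.8 to 41.2 CPM with a median of 37.4, below every one of the 15 low dose libraries (44.9 to 53.1, median 48.5). High minus low was -0.64 ± 0.05 with Glycyrrhiza, -0.47 ± 0.05 with Atractylodes, and -0.44 ± 0.05 with both Poria and Ginseng. The formulas gave -0.27 ± 0.05 (Palmul) and -0.25 ± 0.05 (Sibjeondaebo).

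PLD1, the phosphatidic acid producer, was at 40.7, 41.5 and 40.9 CPM in vehicle. With Glycyrrhiza it was at 42.4, 43.8 and 43.9 CPM at the low, 40.7, 37.8 and 41.0 at the medium and 23.2, 21.3 and 23.1 at the high dose. The low dose thus lay just above vehicle and the high dose at 55.0% of it. In the other 5 extracts the low dose libraries held 42.8 to 48.4 CPM (median 45.0) and the high dose libraries 35.6 to 41.6 (median 38.3), and the means were again in the order low, medium, high in each extract. High minus low was -0.94 ± 0.04 with Glycyrrhiza, -0.28 ± 0.04 with both Atractylodes and Ginseng, -0.23 ± 0.04 with Poria, -0.20 ± 0.04 with Sibjeondaebo and -0.16 ± 0.04 with Palmul.

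SELENBP1, the methanethiol oxidase, was at 20.6, 20.4 and 21.5 CPM in vehicle. With Glycyrrhiza it was at 22.4, 23.7 and 24.5 CPM at the low, 21.6, 24.0 and 21.0 at the medium and 15.2, 15.8 and 15.2 at the high dose. Low and medium overlap, and the high dose stands below both and below vehicle. Palmul differed from the other extracts in shape: 23.5, 27.6 and 27.5 CPM at the low, 21.5, 24.6 and 22.4 at the medium and 23.2, 22.9 and 23.8 at the high dose, so that its high and medium doses were level. High minus low was -0.61 ± 0.08 with Glycyrrhiza, between -0.33 ± 0.07 (Poria) and -0.25 ± 0.07 (Atractylodes) in 4 extracts, and -0.17 ± 0.07 with Palmul, whose doses overlapped.

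CLEC3A, the secreted lectin-like protein, was at 88.1, 87.1 and 85.2 CPM in vehicle. With Glycyrrhiza it was at 84.7, 86.2 and 92.4 CPM at the low, 77.6, 82.1 and 84.5 at the medium and 61.8, 61.7 and 59.9 at the high dose. Over the other 5 extracts the low dose libraries (80.9 to 94.5 CPM, median 88.8) spread around vehicle, and the high dose libraries (69.9 to 80.8, median 75.7) lay below it. High minus low was -0.52 ± 0.05 with Glycyrrhiza, -0.29 ± 0.05 with Poria, -0.27 ± 0.05 with Ginseng, -0.23 ± 0.05 with Palmul, -0.22 ± 0.05 with Sibjeondaebo and -0.15 ± 0.05 with Atractylodes.

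All 3 high dose libraries lay below all 3 low dose libraries for all 6 genes with Poria, Atractylodes, Glycyrrhiza and Ginseng. The same held for 5 genes with Sibjeondaebo, the exception being CD200, and for 4 with Palmul, the exceptions being CD200 and SELENBP1. Of all 16445 genes, 6.64% had this order with Palmul, 6.83% with Sibjeondaebo, 8.94% with Poria, 10.1% with Atractylodes, 17.8% with Glycyrrhiza and 7.65% with Ginseng. Since the genes were chosen for going down over the doses, nothing is read from these counts. The median of high minus low over the 6 genes was -0.66 with Glycyrrhiza, -0.31 with Poria, -0.28 with Ginseng, -0.27 with Atractylodes, -0.21 with Sibjeondaebo and -0.20 with Palmul. Over all genes tested the median lay between -0.010 and -0.001. The Glycyrrhiza doses differ from those of the other extracts, so the values stand side by side and their difference was not tested.

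**Figure D2:**
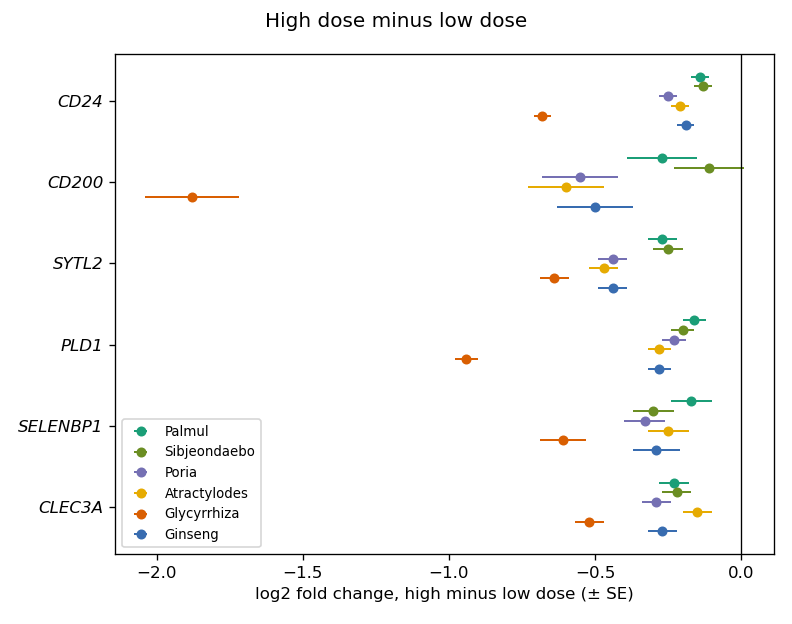
Log2 fold change between the high and the low dose (x axis) for the 6 genes (rows) and 6 extracts (colours), with bars of 1 SE of the fit. All 36 points lie left of 0, and the Glycyrrhiza points, from -0.52 (CLEC3A) to -1.88 (CD200), lie farthest left in each row.

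The larger part of the difference lay between the medium and the high dose in most cases. Each step is a factor of 5 in dose. The medium minus low values lay between -0.20 and 0.01 on the log2 scale over all genes and extracts, and the high minus medium values reached -1.73. With Glycyrrhiza, CD200 differed by -0.15 ± 0.12 between low and medium and by -1.73 ± 0.16 between medium and high. PLD1 differed by -0.12 ± 0.04 and then by -0.82 ± 0.05, and CD24 by -0.10 ± 0.03 and then by -0.58 ± 0.03. SYTL2 and CLEC3A had the larger step between medium and high in 6 of 6 extracts. By the fitted values alone, the exceptions for the other genes were the formulas: Palmul for SELENBP1, Sibjeondaebo for PLD1, and both for CD24 and CD200. Most of these steps were level within their SE. CD24 had -0.07 ± 0.03 in both steps with Palmul, and -0.07 ± 0.03 and -0.06 ± 0.03 with Sibjeondaebo. PLD1 had -0.11 ± 0.04 and -0.10 ± 0.04 with Sibjeondaebo. Steps were also level for CLEC3A with Atractylodes (-0.07 ± 0.05 and -0.09 ± 0.05). With Palmul, SELENBP1 differed by -0.20 ± 0.07 in the first step and by 0.02 ± 0.07 in the second. With Ginseng, the first step was level for CD24 (0.01 ± 0.03) and CLEC3A (0.00 ± 0.05), and the second was -0.20 ± 0.03 and -0.27 ± 0.05. Both steps use libraries that the choice of genes rests on, so they carry no test.

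**Figure D3:**
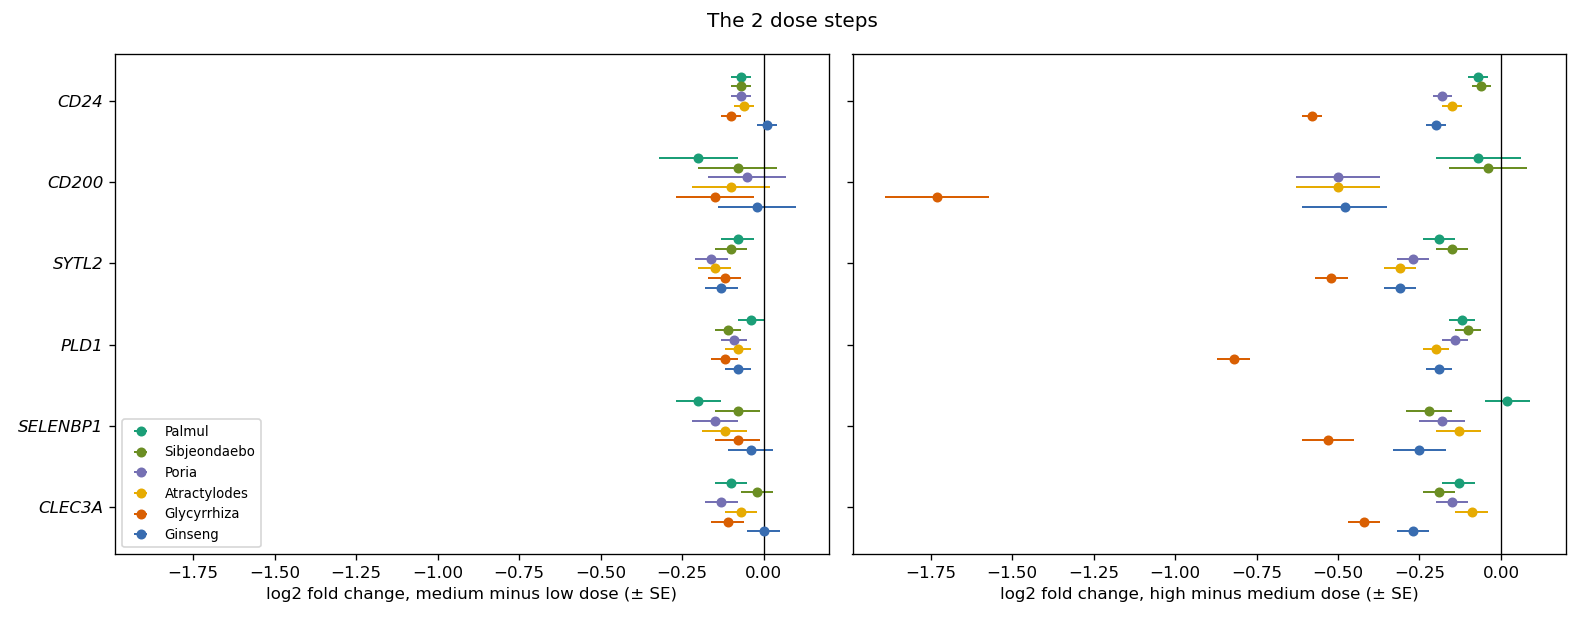
Log2 fold change of the 6 genes from low to medium dose (left) and from medium to high dose (right), by extract, with bars of 1 SE of the fit, on a shared axis. The left panel stays between -0.20 and 0.01, and the right panel reaches -1.73 for CD200 with Glycyrrhiza.

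Against vehicle, the 6 genes fell into different patterns at the medium dose. CD24, CD200 and SYTL2 were called lower than vehicle with each of the 6 extracts, and PLD1, SELENBP1 and CLEC3A with none. A call is an adjusted p below 0.05 in edgeR's quasi-likelihood test, with Benjamini-Hochberg adjustment over all genes tested. The count was thus 3 of 6 genes in each extract, where 10.2% of all genes were called lower with Palmul, 8.90% with Sibjeondaebo, 9.64% with Poria, 9.44% with Atractylodes, 5.52% with Glycyrrhiza and 4.13% with Ginseng. Since the medium dose lies within the dose series that chose the genes, nothing is read from this count against these shares. The 6 comparisons share the same 3 vehicle libraries, so they are not independent of each other.

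SYTL2 at the medium dose held 41.7 to 47.5 CPM over 18 libraries (median 44.7), all below the 55.0 to 61.0 of vehicle. The edgeR log2 difference was -0.45 ± 0.05 with Glycyrrhiza (adjusted p = 1.5e-08), -0.41 ± 0.05 with Poria (9.6e-08), -0.39 ± 0.05 with both Sibjeondaebo (1.6e-07) and Palmul (3.1e-07), -0.37 ± 0.05 with Ginseng (2.5e-06) and -0.35 ± 0.05 with Atractylodes (1.6e-06). These calls held in all 36 combinations of 6 other settings and 6 extracts. They also held in all 36 results with a library left out, 6 per extract. For CD24 the calls held in 32 and 33 of these, and for CD200 in 33 and 29.

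CD24 at the medium dose held 853.9 to 968.5 CPM (median 896.4), and all 18 libraries lay below vehicle. The difference was small: -0.23 ± 0.03 with Glycyrrhiza (edgeR adjusted p = 1.8e-06), -0.21 ± 0.03 with Palmul (4.8e-06), -0.20 ± 0.03 with Poria (1.1e-05), -0.19 ± 0.03 with Sibjeondaebo (2.1e-05), -0.17 ± 0.03 with Atractylodes (7.2e-05) and -0.11 ± 0.03 with Ginseng (0.018). The Ginseng call was lost without vehicle replicate 3 (adjusted p = 0.16), without medium dose replicate 1 (0.068) or replicate 3 (0.067), and in 3 other settings. Over all of them the adjusted p ranged from 0.0062 to 0.25.

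CD200 at the medium dose held 5.38 to 8.31 CPM (median 6.66). Only the Ginseng libraries overlapped with vehicle. The difference was -0.53 ± 0.12 with Palmul (edgeR adjusted p = 0.0013), -0.51 ± 0.12 with Glycyrrhiza (0.003), -0.44 ± 0.12 with Sibjeondaebo (0.0064), -0.43 ± 0.12 with Poria (0.008), -0.40 ± 0.12 with Atractylodes (0.014) and -0.38 ± 0.12 with Ginseng (0.038). Vehicle replicate 2, at 10.1 CPM the highest library, carried part of it. Without that library the adjusted p was 0.06 with Sibjeondaebo, 0.069 with Poria, 0.1 with Atractylodes and 0.2 with Ginseng, and the calls with Palmul and Glycyrrhiza held. The Ginseng call was also lost without vehicle replicate 3 (0.089) and without medium dose replicate 1 (0.13) or replicate 2 (0.2), and with its 6 libraries fitted alone (0.13).

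The mitochondrial share, higher in vehicle than in the treated groups, moves with these comparisons, and its part in them was not tested beyond the fit that follows. With that share as a covariate 3 genes stayed called lower with Palmul, Sibjeondaebo, Poria and Glycyrrhiza. With Atractylodes and Ginseng the count was 1. There CD200 kept its size, at -0.43 (edgeR adjusted p = 0.096) and -0.39 (0.053), while CD24 was at -0.11 (0.076) and -0.08 (0.089).

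SELENBP1 was called higher than vehicle at the medium dose with Sibjeondaebo, where 11.2% of all genes were called higher. Its libraries held 25.0, 24.8 and 24.7 CPM, all above the vehicle range of 20.4 to 21.5, a difference of 0.25 ± 0.07 (edgeR adjusted p = 0.011). The other 5 extracts gave 0.03 ± 0.08 (Poria) to 0.17 ± 0.08 (Atractylodes), none called, with adjusted p of 0.86 to 0.1. With the mitochondrial share as a covariate SELENBP1 was at 0.42 with Sibjeondaebo (edgeR adjusted p = 0.00078), and it was also called higher with Atractylodes (0.36, 0.0088) and Palmul (0.30, 0.019). With a replicate block it was called with Atractylodes as well (0.17, 0.021). PLD1 lay between -0.04 ± 0.04 (Glycyrrhiza) and 0.10 ± 0.04 (Ginseng, adjusted p = 0.12 in edgeR), and CLEC3A between -0.12 ± 0.05 (Poria, adjusted p = 0.083) and 0.02 ± 0.05 (Sibjeondaebo). CLEC3A with Poria was called without Poria replicate 2 (-0.16, adjusted p = 0.026).

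**Figure D4:**
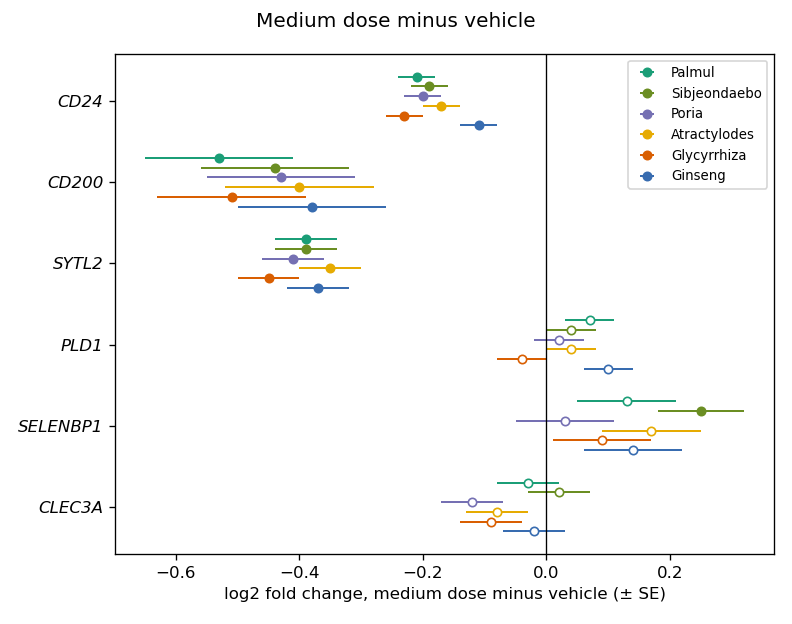
Log2 fold change of the medium dose against vehicle for the 6 genes and 6 extracts, with bars of 1 SE of the fit. Filled points are called (adjusted p below 0.05) and open points are not. CD24, CD200 and SYTL2 are filled and left of 0 in every extract, and the one filled point right of 0 is SELENBP1 with Sibjeondaebo.

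The low and high doses, given here against vehicle with no test since they chose the genes, show where each gene started. CD24 was already below vehicle at the low dose by -0.13 to -0.11, CD200 by -0.38 to -0.30 and SYTL2 by -0.33 to -0.20. All low dose libraries of CD24 and SYTL2 lay below all vehicle libraries, and those of CD200 did in 5 of 6 extracts, Glycyrrhiza being the exception. PLD1 (0.08 to 0.18) and SELENBP1 (0.17 to 0.33) were above vehicle at the low dose, without overlap, in all 6 extracts. CLEC3A was near vehicle (-0.02 to 0.07), with overlap in all 6. At the high dose CD24 (-0.81 to -0.24), CD200 (-2.24 to -0.48), SYTL2 (-0.97 to -0.54) and CLEC3A (-0.51 to -0.16) were below vehicle, without overlap, in every extract. PLD1 at the high dose was within -0.15 of vehicle in 5 extracts and at -0.86 ± 0.05 with Glycyrrhiza. SELENBP1 ranged from -0.44 ± 0.08 with Glycyrrhiza to 0.16 ± 0.08 with Palmul. The PLD1 libraries were below all vehicle libraries in 4 extracts and overlapped with them in 2. Those of SELENBP1 were below in 2 (Poria and Glycyrrhiza), above in 1 (Palmul) and overlapping in 3. The share of all genes without overlap was not computed for these comparisons. Of the 16445 genes, 4234 (Ginseng) to 5478 (Atractylodes) had an unadjusted edgeR p below 0.05 at the low dose against vehicle. At the high dose it was 5028 (Ginseng) to 6986 (Glycyrrhiza), so nothing is read from the non-overlap.

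Extracts of 1 set at the same 100 µg/mL were compared directly, in 2 comparisons that use no vehicle. Palmul against Sibjeondaebo called 0 of the 6 genes, with 0 below an unadjusted p of 0.05, and 0% of all genes in edgeR. DESeq2 called 0 genes as well, and 1215 genes had an unadjusted p below 0.05. The interval of the difference was widest for CD200, from -0.33 to 0.15 on the log2 scale around -0.09. SELENBP1 was at -0.12, with an interval of -0.26 to 0.02 and an unadjusted edgeR p of 0.094, and all 3 Palmul libraries lay below those of Sibjeondaebo. For the other 4 genes the intervals lay within -0.14 and 0.11. Poria against Atractylodes also called 0 of 6 genes, with 0 below an unadjusted p of 0.05, and 0% of all genes in edgeR. DESeq2 called 0, and 575 genes had an unadjusted p below 0.05. SELENBP1 was at -0.14 with an interval of -0.29 to -0.00 and an unadjusted edgeR p of 0.053, and CD200 at -0.03 with an interval of -0.27 to 0.21. These are 95% intervals, and they show how large a difference 3 libraries a group leave possible.

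Angelica, with 1 library per dose, gave 7.20, 7.27 and 4.86 CPM of CD200 at the low, medium and high dose, all below vehicle. SYTL2 was at 49.7, 47.3 and 41.2 CPM, also below vehicle at each dose. SELENBP1 was at 21.9, 20.4 and 17.0 CPM, above the vehicle range at the low and below it at the high dose. CD24 (899.7, 931.8 and 854.4 CPM) and CLEC3A (76.2, 84.9 and 75.8 CPM) were highest at the medium dose. PLD1 was at 44.8, 46.1 and 41.3 CPM, with the high dose inside the vehicle range. The log2 difference between high and low was -0.56 for CD200, -0.37 for SELENBP1, -0.27 for SYTL2, -0.11 for PLD1, -0.07 for CD24 and -0.01 for CLEC3A.

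The 6 genes followed each other closely over the 18 treated groups. Group means of log2 CPM were centred on the mean of their extract, and Pearson r between the genes ranged from 0.88 to 0.99 over 15 pairs. Without the 3 Glycyrrhiza groups r ranged from 0.84 to 0.99. The groups share extracts and sets, and the genes were chosen for their course over dose, so these values are a description. CD24 and PLD1 were at r of 0.99, CD24 and CD200 at 0.99, and SYTL2 and CD200 at 0.88.

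Among 10649 genes with a symbol and a mean of at least 5 CPM, those most like each member are given with r over 18 groups and, after it, r over the 15 groups without Glycyrrhiza. For CD24 they were BTG2, an antiproliferative gene (0.992 and 0.98), CFTR, the chloride channel of cystic fibrosis (0.991 and 0.97), and the receptor phosphatase PTPRO (0.988 and 0.96). For PLD1 they were BTG2 (0.994 and 0.98), the focal adhesion protein TNS1 (0.989 and 0.97) and CD24 (0.987 and 0.96). For CD200 they were CFTR (0.992 and 0.98), FILIP1L (0.987 and 0.96) and CD24 (0.987 and 0.96). BTG2 went from 45.0 CPM at the low to 21.3 at the high dose of Glycyrrhiza, and CFTR from 162.8 to 111.4. For SYTL2 they were BCAS1 (0.994 and 0.99), the transcription factor CREB3L1 (0.987 and 0.99) and the homeobox gene HOXB3 (0.985 and 0.98). For SELENBP1 they were the cathepsin CTSO (0.972 and 0.97), glutamine synthetase GLUL (0.971 and 0.94) and CLEC3A (0.970 and 0.94). For CLEC3A they were GRAMD2B (0.978 and 0.97), SELENBP1 (0.970 and 0.94) and GLUL (0.967 and 0.94).

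Genes related to each member by function were counted from lists that leave the members out. The background between high and low dose was 0.0486% of genes called lower and 0.103% called higher with Palmul, 0.176% and 0.195% with Sibjeondaebo, and 0.839% and 1.02% with Poria. It was 2.01% and 1.93% with Atractylodes, 10.9% and 14.0% with Glycyrrhiza, and 1.23% and 1.29% with Ginseng. Between high and low dose 1082 of the 16445 genes had an unadjusted edgeR p below 0.05 with Palmul and 1815 with Sibjeondaebo. With Poria it was 2136 genes, with Atractylodes 2496 and with Ginseng 2243. At the medium dose against vehicle 11.0% of genes were called higher with Palmul, 10.9% with Poria, 11.3% with Atractylodes, 7.58% with Glycyrrhiza and 5.99% with Ginseng. Genes are said to have risen or fallen where edgeR called them.

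Of 11 other inhibitory immune ligands and complement regulators tested, 6 rose and 1 fell between the low and high dose of Glycyrrhiza (list median 0.28, all genes -0.010). In that comparison most of the called genes moved opposite to CD24 and CD200. In the other 5 extracts 0 were called by edgeR or DESeq2, with 0 to 3 genes per extract below an unadjusted p of 0.05. CD55, which breaks down complement convertases, rose with Glycyrrhiza by 1.22 ± 0.09, from 54.8 to 127.6 CPM (adjusted p = 2.3e-15). CD59, which blocks the membrane attack complex, rose by 0.45 ± 0.05 (1.6e-10), and the checkpoint ligand CD274 by 0.93 ± 0.24 (0.0023) at 1.02 and 1.97 CPM. At the medium dose against vehicle CD55 fell with all 6 extracts, which share their vehicle. There 4 genes of the list fell and 2 rose with Palmul, Poria and Atractylodes each, and 2 fell and 2 rose with Sibjeondaebo. With Glycyrrhiza 1 fell and 0 rose, and with Ginseng 1 fell and 1 rose. The list median at the medium dose lay between -0.14 and -0.01.

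Of 17 other genes of Rab27 and synaptotagmin-like exocytosis, 6 rose and 2 fell with Glycyrrhiza (median 0.09), where SYTL2 was lower. SYTL1 rose from 10.7 to 15.5 CPM (0.53 ± 0.09, adjusted p = 6e-06), and SYTL5 fell from 5.51 to 4.17 CPM (-0.41 ± 0.14, 0.029). With Ginseng 3 fell and 0 rose, among them RAB3B, from 2.13 to 1.06 CPM (-0.99 ± 0.20, 0.0013). With Atractylodes 2 fell and with Palmul 1. RAB27B, of the Rab27 family that SYTL2 binds, fell with Glycyrrhiza, Atractylodes and Ginseng. STX3 fell with Palmul, Atractylodes and Ginseng and rose with Glycyrrhiza. With Poria and Sibjeondaebo 0 were called by edgeR or DESeq2, and 4 and 2 genes had an unadjusted p below 0.05. At the medium dose against vehicle SYTL1 rose with all 6 extracts, which share their vehicle, while SYTL2 was called lower. It was the 1 gene of the list that rose, and 1 to 4 fell per extract, RAB27B among them with Glycyrrhiza.

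Of 23 other genes of phospholipase D and phosphatidic acid metabolism, 9 rose and 0 fell with Glycyrrhiza (median 0.09), and 0 were called by edgeR or DESeq2 in the other 5 extracts, where 2 to 8 genes had an unadjusted p below 0.05. PLPP2, a lipid phosphatase, rose from 80.7 to 97.5 CPM (0.27 ± 0.05, adjusted p = 9.7e-06). PIP5K1A, which makes the lipid cofactor of phospholipase D, rose by 0.25 ± 0.04 (3.8e-07), and the diacylglycerol kinase DGKA by 0.31 ± 0.11 (0.024). Between these Glycyrrhiza doses PLD1 was thus lower and none of these genes fell. At the medium dose against vehicle 3 to 6 genes of the list fell and 3 or 4 rose per extract. PIP5K1A fell there with all 6 extracts, which share their vehicle, and PLD1 was called with none.

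Of 15 colonocyte differentiation genes, 6 rose and 5 fell with Glycyrrhiza (median -0.01). FABP1, a fatty acid carrier of enterocytes, rose from 1.52 to 4.54 CPM (1.58 ± 0.20, adjusted p = 1.4e-08) and CEACAM7 from 0.428 to 1.15 CPM (1.40 ± 0.33, 0.001), while GUCA2A, the guanylin precursor, fell from 0.501 to 0.197 CPM (-1.35 ± 0.50, 0.04). Atractylodes and Ginseng each had 2 that rose, CEACAM5 and CEACAM6, and 1 that fell, VIL1, in the same directions as with Glycyrrhiza. Palmul, Sibjeondaebo and Poria had 0 called by edgeR, with 2, 2 and 1 genes below an unadjusted p of 0.05, and DESeq2 called 1 with Poria.

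Of 21 genes of sulfide oxidation and selenoproteins, 10 rose and 4 fell with Glycyrrhiza (median 0.18). TXNRD1, thioredoxin reductase, rose with Glycyrrhiza (0.79 ± 0.07, adjusted p = 6e-13), Poria (0.58 ± 0.07, 9.7e-08), Atractylodes (0.49 ± 0.07, 3.6e-06), Ginseng (0.37 ± 0.07, 0.00068) and Sibjeondaebo (0.34 ± 0.07, 0.0092). It was not called with Palmul (0.22 ± 0.07, 0.34). Over the whole list 0 rose and 1 fell with Palmul, 1 and 3 with Sibjeondaebo, 1 and 1 with Poria, and 3 and 0 with both Atractylodes and Ginseng. SELENOW fell with Palmul, Sibjeondaebo and Poria. CTH, cystathionine gamma-lyase, rose with Glycyrrhiza from 3.09 to 7.39 CPM (1.27 ± 0.12, 7.5e-12), and the secreted glutathione peroxidase GPX3 by 0.68 ± 0.06 (2e-12). SELENBP1 itself holds no selenocysteine and is not counted in the list.

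Of 7 other C-type lectin domain genes, 5 fell and 0 rose with Glycyrrhiza in edgeR (median -0.44), where DESeq2 called 3. In edgeR 2 fell with Atractylodes and Ginseng each, and 1 with Poria. LY75 fell with Glycyrrhiza, Atractylodes and Ginseng. With the formulas 0 were called by edgeR or DESeq2, with 0 (Palmul) and 1 (Sibjeondaebo) below an unadjusted p of 0.05. REG4, a secreted lectin of intestinal secretory cells, fell from 28.6 to 10.4 CPM with Glycyrrhiza (-1.46 ± 0.08, adjusted p = 2.4e-19), and also with Ginseng (-0.45 ± 0.08, 0.00013), Poria (-0.37 ± 0.07, 0.0014) and Atractylodes (-0.28 ± 0.07, 0.02). MRC2 (-0.70 ± 0.20, 0.017) and CLEC2D (-1.29 ± 0.41, 0.022) fell with Glycyrrhiza, at 1.33 and 0.449 CPM at the low dose. At the medium dose against vehicle REG4 fell with all 6 extracts, while CLEC3A was called with none.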

How the data were processed

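HT29 gene expression was measured in 60 libraries by strand-specific 100 bp paired-end sequencing, per the labels' protocols. The deposited values are expected counts for each gene. The authors made them with RSEM 1.3.3 and STAR 2.7.3a after FastQC 0.11.9 and Trim Galore 0.6.5, with build hg38, per the submitters' processing notes. Their annotation release was not given in the sources used here. RSEM divides reads that fit several genes among them, and 7.7% to 9.78% of values in a library were not whole. All were rounded. The 213 other sample columns were not used.

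The 19 groups of 3 libraries were fitted together in edgeR 4.0.16 (R 4.3.3) with TMM factors of 0.956 to 1.031, filterByExpr and glmQLFTest (38 residual degrees of freedom). P-values were adjusted over 16445 genes by Benjamini-Hochberg. SE is the log2 fold change divided by the root of F, and 95% intervals are 1.96 SE to each side. Log2 CPM used a prior count of 2. TPM were computed from the rounded counts and the merged exon length per gene.

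The members and gene lists were chosen with earlier results of these data known. Named genes are the 6 members, the 3 most like each, and up to 3 called genes per list with the largest change between high and low dose. RAB27B, STX3, CEACAM5, CEACAM6, VIL1, SELENOW and LY75 are named as well, without effect sizes, for calls between high and low dose in at least 3 extracts. No replicate pair agreed within sampling noise (chi-square over its degrees of freedom was 2.4 to 24.44). The fitting script was also run on simulated counts with the same spread for every gene, unlike real genes, and nothing is read from that run about the calls. The other settings tried were DESeq2 1.42.0, RLE factors, no low-count filter, the 6 libraries of a comparison alone, a replicate block, the mitochondrial share as a covariate, and each library left out.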

Additional observations from a re-analysis of the deposited data

Results flagged for a closer look

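The Angelica libraries, 1 per dose, enter no test, and 3 of their values lay above every vehicle library. PLD1 was at 44.8 CPM at the low and 46.1 CPM at the medium dose, against 40.7 to 41.5 in vehicle. SELENBP1 was at 21.9 CPM at the low dose, against 20.4 to 21.5. No replicate exists for these libraries, and their set differs from that of every other extract.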

How the results depend on the processing

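With the mitochondrial share as a covariate, 1 gene was called lower than vehicle with Atractylodes and 1 with Ginseng in place of 3, and the Poria median between high and low dose was -0.28. That covariate turned the sign of 3 uncalled medium dose differences: CLEC3A to 0.04 with Palmul and 0.01 with Ginseng, and PLD1 to -0.01 with Poria. It also made SELENBP1 called higher with Palmul (0.30, edgeR adjusted p = 0.019) and Atractylodes (0.36, 0.0088). Fitting the 6 libraries alone left 1 gene called with Ginseng. With a replicate block 3 genes were called lower in each extract and 0 in both direct comparisons, and SELENBP1 with Atractylodes became called (0.17, adjusted p = 0.021). Same-numbered libraries did not deviate together (r of -0.11 to 0.19 over 42 pairs), which is short of a pairing over all genes. Replicate 1 was below replicate 2 in 16 of 18 treated groups for SELENBP1, and in 7 to 13 for the other 5 genes. Without 1 library each, the count with Ginseng ranged from 1 to 3, with Poria from 2 to 4, with Atractylodes and Sibjeondaebo from 2 to 3, and the medians ranged from -0.29 to -0.24 with Atractylodes and from -0.32 to -0.26 with Ginseng. Leaving 1 library out turned CLEC3A (-0.01 to 0.03 with Sibjeondaebo, -0.04 to 0.01 with Ginseng) and SELENBP1 with Poria (-0.05 to 0.10), none of them called. Over all genes, the covariate lowered the calls against vehicle from 3474 to 1421 with Palmul, 3302 to 1572 with Sibjeondaebo, 3382 to 1608 with Poria and 3410 to 1220 with Atractylodes. The 6 libraries alone gave 2247, 1579 and 2262 with the first 3 of these and 341 in place of 1665 with Ginseng. Between high and low dose they gave 9 in place of 61 with Sibjeondaebo, 84 for 306 with Poria, 303 for 649 with Atractylodes and 107 for 415 with Ginseng. Without the low-count filter the calls between high and low dose were 115 in place of 25 with Palmul, 341 with Sibjeondaebo and 519 with Poria, and 158 and 106 of 34296 genes in the direct comparisons in place of 0. The 6 libraries alone called 6 genes between Poria and Atractylodes. The replicate block gave 52 calls between high and low dose with Palmul, 119 with Sibjeondaebo, 465 with Poria and 623 with Ginseng. The cause was not tested. CD200, with 39 to 205 counts per library, has the widest errors. The vehicle comparisons rest on 3 libraries of no stated set, under the batch name that all libraries carry.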
